A study of Mus musculus with 6 samples.

Results

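The endoplasmic reticulum (ER) folds, glycosylates and checks the proteins that a cell secretes, and the unfolded protein response (UPR) adjusts that machinery to the load. 10 genes of that response are described here in mouse liver: Hspa5, Hsp90b1, Pdia4, Pdia6, Sdf2l1, Dnajb9, Dnajc3, Herpud1, Xbp1 and Creld2. They were found by symbol in the deposited expression table, where 10 of 10 matched 1 gene each among 34352, and by the same gene identifiers among the 55335 genes of the deposited FPKM table. FPKM counts fragments relative to gene length and to the library total. Levels can therefore be set side by side between genes, within a limit given below. The members were chosen by function, with earlier results of these data known.

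Livers came from wild-type C57BL/6 mice that the labels give as male and 6 to 8 weeks old in their housing notes, 6 assigned to each group. The cadmium group received CdCl2 through a gavage tube, daily, at 20 mg per kg of body weight up to day 90, and the control group 0 mg per kg. Each group has 3 libraries, and how its 6 mice map to them is not stated, so p-values measure the spread between libraries, which may be technical. RNA was cut into fragments and exposed to an antibody against N6-methyladenosine, a methyl mark on RNA, and the libraries used here hold what it left unbound. A difference in abundance therefore cannot be told apart from a difference in the share of a transcript that the antibody took away. This holds between groups and between genes. In bulk liver, fewer cells of a type and less RNA per cell cannot be told apart either.

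When unfolded proteins pile up in the ER lumen, 3 membrane sensors respond. IRE1 (Ern1) splices the Xbp1 transcript into one that encodes an active transcription factor, ATF6 (Atf6) is cut in the Golgi and its freed part enters the nucleus, and PERK (Eif2ak3) slows translation and favours that of ATF4. XBP1 and ATF6 raise chaperones, disulfide isomerases and the machinery that sends misfolded proteins to the proteasome. Hepatocytes secrete most plasma proteins and carry abundant ER, so these genes are well expressed in liver without added stress. The values below are totals per gene and do not separate spliced from unspliced Xbp1.

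The best-known DNA elements of this response lie just upstream of its genes, and they are shown because they were found at 6 of the 10 members. The 250 bases before the RefSeq start of each gene (build GRCm38.p6, the patch release of mm10) were searched on both strands for the ER stress response element ERSE, which is CCAAT, then 9 free bases, then CCACG, and for ERSE-II, which is ATTGG, then 1 free base, then CCACG. ERSE was found at 5 of the 10 genes and at 0.113% of 32851 promoter windows of the same length, and ERSE-II at 1 of 10 genes and 0.0304% of windows. The elements are known from genes of this response, so these shares describe the windows and test nothing. In the sites below, capitals are the fixed letters of the motif and lower case the spacer, each read on the strand where it matches, which is that of the gene unless stated (minus for Hsp90b1, plus for the others).
Hspa5 ERSE, chr2:34772025-34772043, 65 to 47 bases before the start: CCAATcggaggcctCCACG
Hsp90b1 ERSE, chr10:86705638-86705656, 212 to 194 bases before the start: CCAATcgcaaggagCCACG
Hsp90b1 ERSE on the opposite strand, chr10:86705533-86705551, 107 to 89 bases before the start: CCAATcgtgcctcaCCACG
Pdia6 ERSE, chr12:17266491-17266509, 98 to 80 bases before the start: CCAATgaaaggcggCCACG
Dnajc3 ERSE, chr14:118937827-118937845, 105 to 87 bases before the start: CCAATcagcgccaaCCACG
Creld2 ERSE on the opposite strand, chr15:88819520-88819538, 126 to 108 bases before the start: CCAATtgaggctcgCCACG
Herpud1 ERSE-II, chr8:94386377-94386387, 52 to 42 bases before the start: ATTGGgCCACG

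Herpud1 is the member whose level differed most between the groups, so its whole upstream window is shown. It is chr8:94386179-94386428 on the plus strand, overlaps no annotated exon of GENCODE M21, and carries its ERSE-II letters in capitals near the 3′ end.
Herpud1 upstream window: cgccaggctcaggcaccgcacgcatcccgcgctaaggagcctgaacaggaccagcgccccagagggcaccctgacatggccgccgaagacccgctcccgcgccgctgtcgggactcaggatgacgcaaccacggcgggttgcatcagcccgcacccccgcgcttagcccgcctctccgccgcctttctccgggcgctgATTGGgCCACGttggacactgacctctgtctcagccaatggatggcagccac
The windows of Pdia4, Sdf2l1, Dnajb9 and Xbp1 hold neither motif as spelled, which says only that these letters are not in these 250 bases. The core of the XBP1-type element UPRE, TGACGTG, was found at 1 member, Hspa5, 157 to 151 bases before the start, and at 1.65% of all windows. The CCACG end of ERSE alone, whose matches include those within ERSE and ERSE-II, was found at 8 members and at 28.3% of windows. GENCODE M21 can place a start elsewhere than RefSeq, and the windows of Hspa5, Hsp90b1, Pdia6 and Dnajb9 overlap its annotated exons. Its start of Hspa5, at chr2:34771970, lies before the ERSE of that gene. A match is a description of the letters and not a measured binding site.

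**Figure D1:**
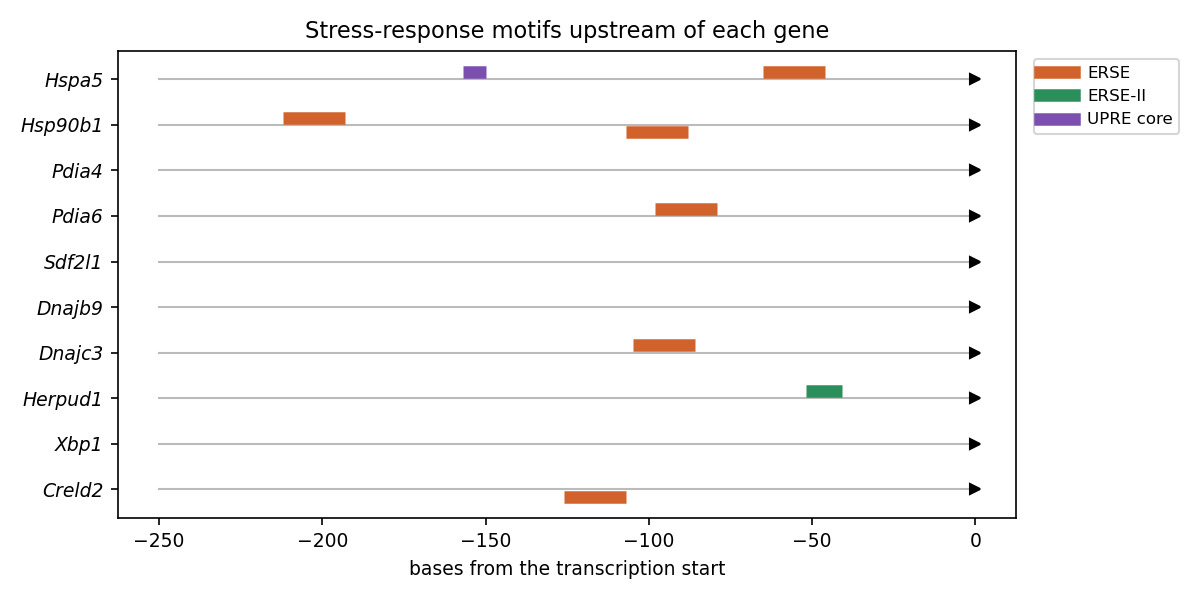
Positions of the ERSE, ERSE-II and UPRE core letters in the 250 bases upstream of each of the 10 genes; the x axis is the distance in bases from the transcription start (arrowhead), and bars above or below a line lie on the strand of the gene or on the opposite strand. Matches of ERSE sit at 5 genes, the ERSE-II match at Herpud1, and 4 lines carry no bar.

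The libraries held 42115960 to 68587128 reads, recovered from the deposited log2 values, and each member was read 421 to 27751 times per library. The metallothionein Mt2, a protein that binds cadmium, was at 4.39 to 19.1 FPKM in controls and 667 to 1284 in cadmium. The labels give male mice, but Ddx3y and Eif2s3y, on the Y chromosome, were listed at 0 in all 6, and Xist, which is read from an inactive X chromosome, was at 19.7 to 35.5 FPKM. Control replicate 1 and cadmium replicate 2 stood apart from the other libraries, with mitochondrial rRNA at 0.265% and 0.277% of reads against 0.782% to 1.18%. The 9 matched hepatocyte markers summed to 16981 to 27297 FPKM. The summed Kupffer cell and macrophage markers were at 40.5 to 69.6 FPKM in controls and 82.1 to 94.8 in cadmium (10 markers, 3 of 9 tested called higher), and the stellate cell and fibroblast markers at 13.3 to 20.7 and 31.9 to 36.1 FPKM (9 markers, 6 of 7 tested called higher). The sinusoidal endothelial markers summed to 22.7 to 34.7 and 31.8 to 41.9 FPKM, with 8 of 8 log2 fold changes above 0, groups apart for 4, and 1 called, Lyve1, a hyaluronan receptor (limma adjusted p = 0.0364). With the replicate block the called markers were 2 of the Kupffer cell and macrophage list (Adgre1 and Lyz2), 3 stellate and 0 endothelial. Over all genes 7.86% were called higher, or 1.86% with the block. The Kupffer cell and macrophage list did not move as a whole. Of its 9 tested markers 2 had a negative log2 fold change, Vsig4 (-0.19) and Marco (-0.05), and neither was called. Timd4, too low to be tested, was at 0.568 ± 0.165 FPKM in controls and 0.0913 ± 0.0216 in cadmium. The part of these cells in the results below was not tested. B cell and plasma cell markers, whose cells are rich in the same ER genes, summed to 45.9 to 76.4 and 69.6 to 79.9 FPKM, of which Sdc1, which hepatocytes also express, made up 57.2 ± 13.2 and 65.7 ± 4.99 (SD, n = 3). Among their other markers Jchain was low, at 0.341 ± 0.124 and 0.305 ± 0.0986 FPKM. Mzb1 was at 0 in each control and 0.0163 ± 0.0195 FPKM in cadmium. The immunoglobulin genes Ighm and Igkc were higher than these, with means of 1.71 and 4.97 FPKM in controls and 3.55 and 5.13 in cadmium. Their log2 fold changes were 0.703 and 0.153, the groups overlapped for both, and neither was called (limma adjusted p = 0.247 and 0.826). Of 10 pancreatic acinar markers, 6 were listed at 0 in every library.

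After 90 days of cadmium 0 of the 10 members were called higher and 1, Herpud1, was called lower at an adjusted p of 0.05 (limma on log2(FPKM + 1), Benjamini-Hochberg over 9908 genes). Over all tested genes 7.86% (779) were called higher and 1.82% (180) lower, and in the deposited log2 values 381 were called higher and 493 lower. At an unadjusted p of 0.05 the members Herpud1 and Dnajb9 passed, 2 of 10, against 27% of all genes. Hspa5 and Dnajb9 had lower mean levels in cadmium without passing the test, and Hsp90b1, Pdia4, Pdia6 and Sdf2l1 had intervals that spanned 0 with point estimates between -0.01 and 0.18. The median log2 fold change of the 10 members was -0.15 against 0.09 for all tested genes, and 7 members had a negative value, as did 33.3% of all genes. That centre depends on the scaling: the median of all genes was -0.06 in the deposited log2 values, which are scaled by size factors instead of library totals, so changes are also given relative to it.

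**Figure D2:**
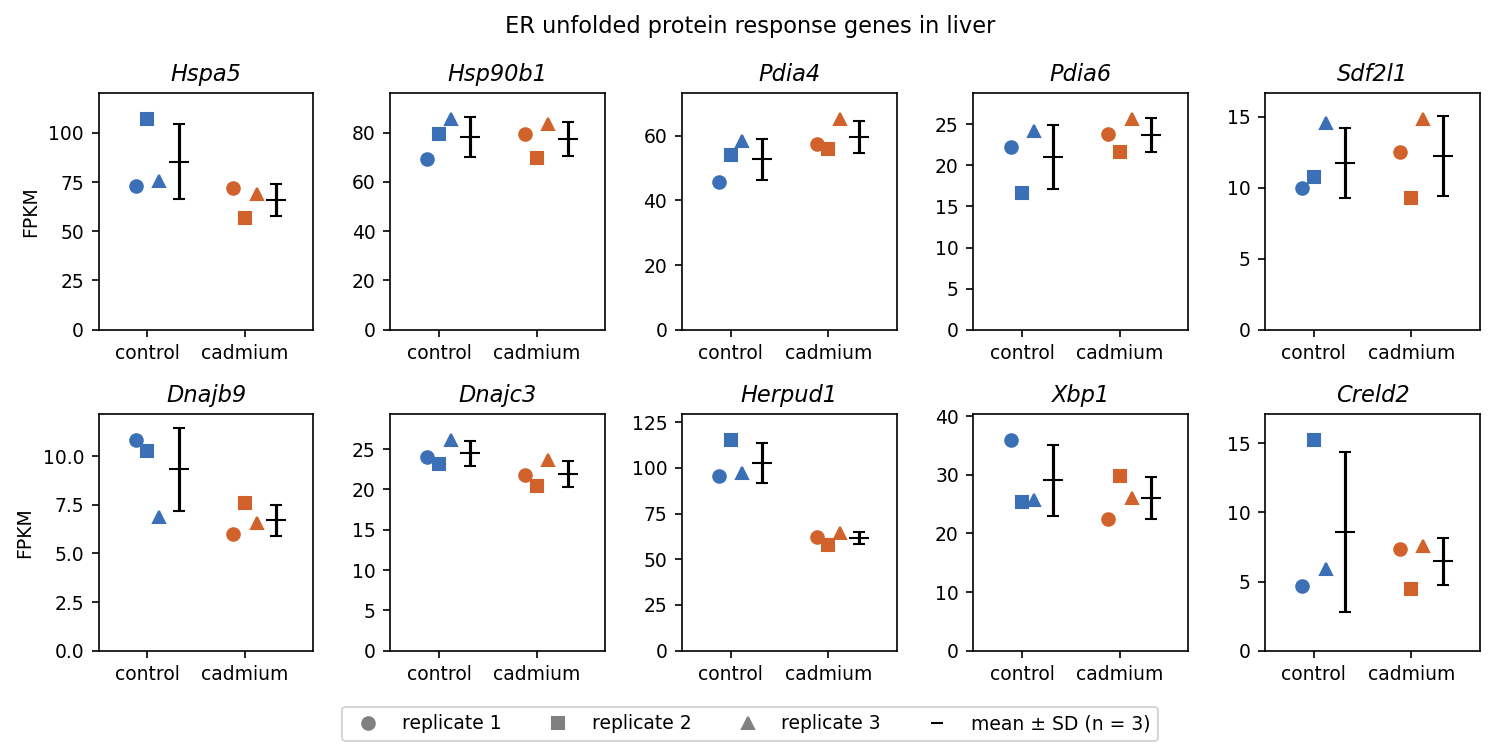
FPKM of the 10 genes in each library (y axes from 0), with symbols for the replicate number and bars for the group mean ± SD (n = 3). Groups are apart for Herpud1, at 95.5 to 115 in controls and 58.0 to 64.4 in cadmium, and barely apart for Hspa5; the other 8 genes overlap.

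Herpud1 encodes an ER membrane protein with a ubiquitin-like domain that helps assemble the complexes which pull misfolded proteins out of the ER for degradation. It lies on chromosome 8, 94386438 to 94395377 (ENSMUSG00000031770, GENCODE M21, mm10). Control libraries 1 to 3 were at 95.5, 115 and 97.3 FPKM and cadmium libraries 1 to 3 at 62.0, 58.0 and 64.4 FPKM. Each cadmium library was below each control library, which 2 of 10 members showed in that direction (Herpud1 and Hspa5), as did 7.24% of all tested genes. In the other direction 0 of 10 members were apart, against 26.4% of all genes. Mean FPKM fell from 103 ± 11.0 to 61.5 ± 3.26 (SD, n = 3), to 0.598 of the control mean, with log2 fold change -0.73 (SE 0.13, 95% interval -1.03 to -0.42, adjusted p = 0.0204), or -0.82 relative to the median of all genes. With the replicate number as a block the adjusted p was 0.0672, and 0 of 10 members were called, against 2.5% of all genes in that fit (0.646% lower, 1.86% higher). Leaving out control replicate 1 kept the call (adjusted p = 0.0270), and leaving out control replicate 2 or 3 or cadmium replicate 1, 2 or 3 ended it, at 0.0501, 0.0564, 0.0645, 0.0570 and 0.0866. The log2 fold change stayed between -0.64 and -0.76 in those 5 fits.

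Within each pair of libraries that share a number, Herpud1 was lower in cadmium by -0.62, -0.98 and -0.59 on the log2(FPKM + 1) scale. With its groups apart, every such pair had to be lower. Without control replicate 1 and cadmium replicate 2 together, the log2 fold change was -0.74 (limma adjusted p = 0.0478). In the deposited log2 values Herpud1 was at 14.01 ± 0.13 in controls and 13.10 ± 0.08 in cadmium (SD, n = 3), and limma on those values gave -0.92 (adjusted p = 0.00403). Its annotated span also holds Gm15890, an antisense gene whose exons do not overlap those of Herpud1 and which was at 0.385 to 2.39 FPKM.

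The lumenal chaperones are the bulk of the folding machinery. Hspa5 encodes BiP, the HSP70 of the ER, which binds unfolded chains and holds the 3 sensors inactive, and its transcript is a usual gauge of the response. Hspa5 was at 73.1, 107 and 75.8 FPKM in control libraries 1 to 3 and at 72.0, 56.8 and 69.2 FPKM in cadmium libraries 1 to 3. The highest cadmium library lay just below the lowest control library, and control replicate 2 stood above the rest. The means were 85.4 ± 19.0 and 66.0 ± 8.07 FPKM (SD, n = 3), a log2 fold change of -0.35 (SE 0.18, 95% interval -0.78 to 0.08, adjusted p = 0.268). Without control replicate 2 it was -0.18 (adjusted p = 0.522), so the size of the difference depended on that library.

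Hsp90b1 encodes GRP94, the HSP90 of the ER, which finishes the folding of a narrower set of clients. It was at 69.5, 79.3 and 85.6 FPKM in controls and 79.4, 69.6 and 83.3 FPKM in cadmium. The groups covered nearly the same range, with a log2 fold change of -0.01 (95% interval -0.34 to 0.31, limma adjusted p = 0.970), and its sign turned without control replicate 2 or 3 or cadmium replicate 2. Sdf2l1, a small lumenal partner of BiP and its J-proteins, was at 9.95, 10.7 and 14.5 FPKM in controls and 12.5, 9.24 and 14.9 FPKM in cadmium. Its log2 fold change was 0.05 (95% interval -0.41 to 0.50, limma adjusted p = 0.912), and its sign differed with the scaling, at -0.13 in the deposited log2 values.

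Pdia4 (ERp72) and Pdia6 (P5) are disulfide isomerases that form and rearrange disulfide bonds in the ER. Pdia4 was at 45.8, 54.03 and 58.4 FPKM in controls and 57.4, 56.1 and 65.3 FPKM in cadmium. The log2 fold change of Pdia4 was 0.18 (95% interval -0.14 to 0.50, limma adjusted p = 0.459). Pdia6 was at 22.2, 16.7 and 24.2 FPKM in controls and 23.9, 21.6 and 25.7 FPKM in cadmium. Its log2 fold change was also 0.18 (95% interval -0.18 to 0.54, limma adjusted p = 0.505), and both isomerases were higher in cadmium in all 3 same-numbered pairs. On the deposited scale limma gave 0.00 for Pdia4 and 0.01 for Pdia6 (adjusted p = 0.999 and 0.985). Relative to the median of all genes on the FPKM scale each isomerase was at 0.09, and Pdia4 was at -0.0042 with voom.

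Dnajb9 and Dnajc3 encode J-domain proteins that direct BiP to its clients. Dnajb9 (ERdj4) binds misfolded proteins and returns BiP to the sensor IRE1, and Dnajc3 (P58IPK) is a lumenal co-chaperone of BiP long known as an inhibitor of PERK. Dnajb9 was at 10.8, 10.3 and 6.89 FPKM in controls and 5.98, 7.57 and 6.57 FPKM in cadmium. Control replicate 3 sat within the cadmium range, and the other controls above it. The log2 fold change of Dnajb9 was -0.41 (SE 0.17, 95% interval -0.80 to -0.01), with an unadjusted p of 0.0441 and an adjusted p of 0.172 (limma). Dnajc3 was at 24.0, 23.2 and 26.2 FPKM in controls and 21.8, 20.5 and 23.6 FPKM in cadmium, with a small spread in each group. Its log2 fold change was -0.15 (SE 0.11, 95% interval -0.40 to 0.10, limma adjusted p = 0.422). Both J-proteins were lower in cadmium in all 3 same-numbered pairs, and the share of all genes with that pattern was not counted.

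Xbp1, whose product drives much of the response, was at 36.0, 25.4 and 25.7 FPKM in controls and 22.5, 29.7 and 26.1 FPKM in cadmium. Control replicate 1 and cadmium replicate 2, the libraries low in mitochondrial rRNA, were the highest of their groups, and the other 4 lay between 22.5 and 26.1 FPKM. The log2 fold change was -0.14 (95% interval -0.54 to 0.26, limma adjusted p = 0.651), and 0.019 without control replicate 1. Creld2, a lumenal protein with EGF-like repeats that is secreted under ER stress, was at 4.69, 15.3 and 5.87 FPKM in controls and 7.34, 4.47 and 7.55 FPKM in cadmium. Control replicate 2 alone set its control mean: the log2 fold change was -0.23 (SE 0.43, limma adjusted p = 0.779) with that library and 0.22 (adjusted p = 0.571) without it. Hspa5 and Herpud1 were also highest in control replicate 2.

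**Figure D3:**
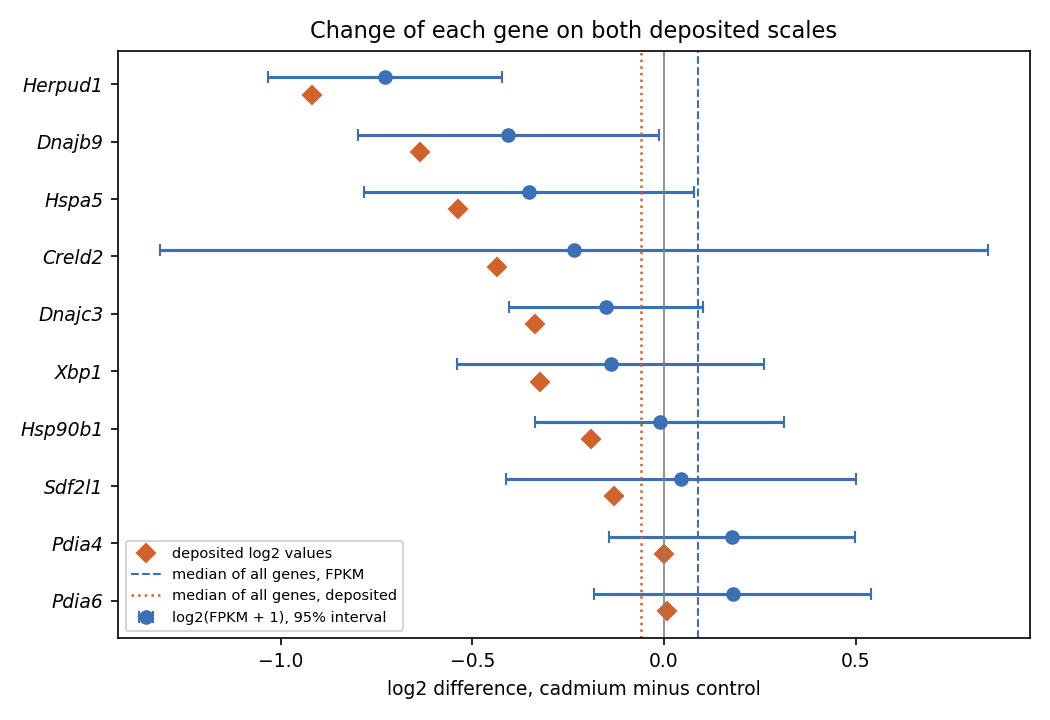
Log2 difference of each gene, cadmium minus control, on the log2(FPKM + 1) scale with its 95% limma interval (circles) and in the deposited log2 values (diamonds); vertical lines are 0 and the median of all tested genes on each scale. Every diamond lies left of its circle, Herpud1 is lowest on both scales (-0.73 and -0.92), and the Pdia4 and Pdia6 diamonds sit at 0.00 and 0.01.

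The authors' deposited table called more members lower. In the authors' deposited table, FDR was under 0.05 for 4 of 10 members, all lower in cadmium: Herpud1 (log2 fold change -0.92, FDR 2.95e-12), Dnajb9 (-0.64, 0.00624), Hspa5 (-0.54, 0.0171) and Dnajc3 (-0.34, 0.0451). Over the same 9908 genes that table called 9.35% lower and 6.92% higher. The test behind those values is not given in the sources used here. Limma on the 6 deposited log2 columns gave the same differences but called 1 of 10 members, Herpud1, with adjusted p of 0.0866 for Dnajb9, 0.0826 for Hspa5 and 0.110 for Dnajc3, where 8.82% of all genes were called, 4.98% lower and 3.85% higher. In those columns the groups did not overlap for 3 members, Herpud1, Hspa5 and Dnajc3, all lower in cadmium, against 19.2% of all genes. The direction of these 4 genes was the same in limma on FPKM, which come from the same libraries. In limma on the deposited values the direction could not differ, since the differences are the authors' own. The call differed for 3 of the 4 genes.

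In controls the order of mean FPKM ran from Herpud1 (103) and Hspa5 (85.4) through Hsp90b1 (78.1), Pdia4 (52.7), Xbp1 (29.0), Dnajc3 (24.5), Pdia6 (21.0), Sdf2l1 (11.7) and Dnajb9 (9.34) to Creld2 (8.61). The ranges of neighbouring genes overlapped except between Hsp90b1 and Pdia4, between Pdia4 and Xbp1, and between Pdia6 and Sdf2l1. In cadmium Hsp90b1 (77.5) came first, followed by Hspa5 (66.0), Herpud1 (61.5) and Pdia4 (59.6), and each of these overlapped the next in its range. The step from Pdia4 down to Xbp1 (26.1) was clear in both groups.

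Shares within a library do not depend on the scaling between libraries. Of the summed FPKM of the 10 genes, Herpud1 made up 24.4%, 25.2% and 23.1% in control libraries 1 to 3 and 17.0%, 17.4% and 16.7% in cadmium libraries 1 to 3. Pdia4 made up 11.7%, 11.8% and 13.9% in controls and 15.7%, 16.8% and 16.9% in cadmium. Shares sum to a fixed total, so a lower share of one gene raises the others. The shares of Hsp90b1 and Pdia6 were also higher in every cadmium library, at 21.4% ± 0.46 against 18.5% ± 1.64 and at 6.56% ± 0.0829 against 5.02% ± 1.19 (SD, n = 3). With Herpud1 left out of the sum, Pdia4 and Pdia6 were still higher in every cadmium library, at 19.9% ± 0.774 against 16.4% ± 1.41 and 7.90% ± 0.0666 against 6.62% ± 1.51, and Hsp90b1 overlapped, at 25.3% to 26.2% against 23.2% to 26.5%. In the full sum the other 6 genes overlapped in share, Hspa5 among them at 20.0% ± 2.95 and 18.2% ± 1.38. The ratio of Herpud1 to Hspa5 was 1.31, 1.08 and 1.28 in controls and 0.861, 1.02 and 0.932 in cadmium, and that of Herpud1 to Hsp90b1 was 1.32 ± 0.17 and 0.795 ± 0.032. Both ratios were lower in every cadmium library, and both have Herpud1 on top, so they restate its lower level. The ratios of Hspa5 to Hsp90b1, Dnajb9 to Dnajc3, Pdia4 to Pdia6 and Creld2 to Sdf2l1 overlapped between the groups. With 3 libraries against 3 an exact permutation test cannot go below p = 0.10, so the shares and ratios are given without one.

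**Figure D4:**
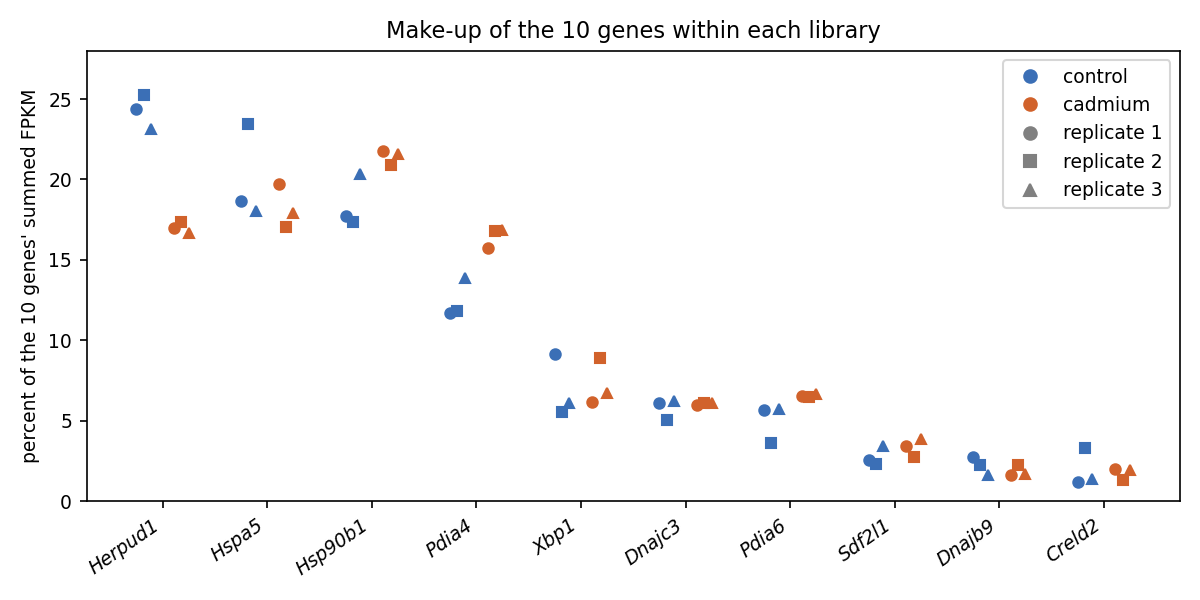
Share of each gene in the summed FPKM of the 10 genes, in percent per library (y axis from 0); colours are the groups and symbols the replicate number. Herpud1 drops from 23.1% to 25.2% in controls to 16.7% to 17.4% in cadmium, while Hsp90b1, Pdia4 and Pdia6 are higher in each cadmium library, a difference that for Hsp90b1 is lost when Herpud1 is left out of the sum.

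The members did not move as 1 block from library to library. Control replicate 1 and cadmium replicate 2 were each the lowest library of their group for 6 members, Hspa5, Hsp90b1, Pdia4, Sdf2l1, Herpud1 and Creld2, and each the highest for Xbp1 and Dnajb9. For Pdia6 and Dnajc3 cadmium replicate 2 was the lowest and control replicate 1 was not. These are the same libraries with little mitochondrial rRNA, whose Alb share was 2.87% and 2.91% of reads against 4.89% to 5.06%, and the part of that in the members' levels was not tested. Across the 6 libraries the genes outside the lists whose log2(FPKM + 1) most resembled Hspa5 were Ptges3 (Pearson r = 0.995), Zfp385b (0.991), Snord17 (0.991), Aimp2 (0.987) and Lrrfip2 (0.977). For the mean profile of the 10 members they were Ttc36 (r = 0.980), Rdh18-ps (0.967), Tubb4b-ps1 (0.965), Slc25a37 (0.963) and Zfp609 (0.961). These r over 6 libraries describe resemblance among 9908 genes that share the same libraries and depths, and Pdia6 itself had an r of -0.69 with Hspa5.

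The rest of the pathway was given by lists chosen by function. Of 8 tested sensor genes 1 was called higher and 0 lower, against 7.86% and 1.82% of all genes. The called gene, Creb3l2, encodes an ER-anchored transcription factor related to ATF6. Creb3l2 rose from 2.61 ± 0.12 to 4.07 ± 0.06 FPKM (SD, n = 3), a log2 fold change of 0.49 (SE 0.07, limma adjusted p = 0.0133). Its adjusted p was 0.0516 with the replicate block and 0.0672 without cadmium replicate 3. Of the sensors proper, named for their role and after their values were seen, none passed the test, with Ern1 at 6.83 ± 0.85 and 7.57 ± 0.09, Atf6 at 5.90 ± 0.10 and 5.87 ± 0.15, and Eif2ak3 at 1.85 ± 0.27 and 2.16 ± 0.04 FPKM (limma adjusted p = 0.435, 0.975 and 0.320). Atf6b, a paralog of ATF6, and Mbtps1, the protease that first cuts ATF6, were at 4.49 ± 0.90 and 5.59 ± 0.07 and at 3.34 ± 0.15 and 3.72 ± 0.13 FPKM without passing the test (limma adjusted p = 0.197 and 0.345).

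Of 24 other ER chaperones and folding enzymes 0 were called in either direction, with a median log2 fold change of 0.07. Prdx4, an ER peroxiredoxin, was at 12.2 ± 1.72 and 15.3 ± 0.568 FPKM, and Erp29, a lumenal folding factor, at 1.41 ± 0.154 and 1.75 ± 0.0849 FPKM (limma adjusted p = 0.145 and 0.163). Txndc11, a thioredoxin-domain protein, was at 2.54 ± 0.30 and 1.90 ± 0.397 FPKM (limma adjusted p = 0.160). The isomerase Txndc5 was at 30.0 ± 4.28 FPKM in controls and 23.8 ± 2.45 in cadmium (adjusted p = 0.188). Calr and Canx, the lectin chaperones of glycoproteins, were at 104 ± 22.5 and 105 ± 11.3 and at 49.8 ± 0.39 and 50.5 ± 1.43 FPKM, values chosen after they were seen. Of 19 tested genes of ER-associated degradation, the pathway in which Herpud1 works, 0 were called, with a median of 0.03. Edem2, which trims mannose from misfolded glycoproteins, was at 5.80 ± 0.54 and 7.40 ± 0.63 FPKM (adjusted p = 0.102). Nploc4 and Ufd1, cofactors of the extracting ATPase, and Edem3, a relative of Edem2, were at log2 fold changes of -0.23, -0.16 and -0.24 (adjusted p = 0.223, 0.257 and 0.240).

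Of 21 tested genes of translocation and N-glycosylation 0 were called, with a median of 0.15. Rpn2 and Ddost, subunits of the oligosaccharyltransferase, were at 16.9 ± 1.32 and 21.8 ± 3.15 and at 28.7 ± 1.68 and 35.6 ± 3.27 FPKM (adjusted p = 0.146 and 0.154). Srprb, of the signal recognition particle receptor, and Spcs2, of signal peptidase, were at log2 fold changes of -0.27 and 0.27 (adjusted p = 0.157 and 0.235). Of 16 tested genes of ER to Golgi transport 0 were called, with a median of 0.06. Sar1b, the GTPase that starts COPII coats, was at 71.8 ± 11.0 and 54.9 ± 2.97 FPKM (adjusted p = 0.157). The coat genes Sec24b, Sec24a and Sec13 were at log2 fold changes of 0.17, -0.17 and -0.18 (adjusted p = 0.347, 0.420 and 0.434). Of the genes named here, limma on the deposited log2 values called Txndc11, Nploc4, Srprb and Sar1b lower, at adjusted p of 0.0456, 0.0469, 0.0410 and 0.0484. That fit called 4.98% of all genes lower, and 17 genes over all 7 lists, not all of them named. On log2(FPKM + 1), the lists of chaperones, degradation, translocation and transport were at -0.02, -0.06, 0.06 and -0.03 relative to the median of all genes. Their 0 calls on that scale stand beside 9.68% of all genes called in either direction.

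The arm of the response that runs through PERK and ATF4 had calls in both directions, 2 higher and 2 lower of 11 tested, against 7.86% and 1.82% of all genes. With the replicate block 1 was higher and 1 lower. Trib3, a pseudokinase induced through ATF4, was at 2.31, 1.25 and 2.12 FPKM in controls and 5.87, 6.38 and 8.05 FPKM in cadmium, a rise of 1.43 on the log2 scale (SE 0.17, limma adjusted p = 0.00869). That call held in each fit that left out 1 library and ended without the filter on low FPKM (0.0705). Atf5, a transcription factor translated under stress, rose from 47.1 ± 12.1 to 82.8 ± 7.74 FPKM (adjusted p = 0.0424). Its adjusted p was 0.0584 with the block, up to 0.133 in the 5 fits that left out control replicate 1 or 3 or any 1 cadmium library, 0.0538 after median-of-ratios scaling and 0.0502 with voom. Cebpb, a bZIP factor of liver and partner of ATF4, was at 81.8, 107 and 110 FPKM in controls and 34.9, 46.9 and 40.0 FPKM in cadmium, a log2 fold change of -1.27 (adjusted p = 0.00994, and 0.0511 without cadmium replicate 3). Ppp1r15b, which recruits the phosphatase that reverses the action of PERK, fell from 24.7 ± 1.02 to 15.5 ± 2.50 FPKM (adjusted p = 0.0278). The call of Ppp1r15b ended with the block (0.0705). It also ended in the fits that left out control replicate 2 (0.0669), control replicate 3 (0.0842), cadmium replicate 1 (0.0831) or cadmium replicate 3 (0.116). Atf4 and Ddit3 are named for their role, after their values were seen. Atf4 was at 12.7 ± 0.53 and 13.0 ± 1.06 and Ddit3, which encodes CHOP, at 1.16 ± 0.28 and 1.39 ± 0.41 FPKM (limma adjusted p = 0.897 and 0.571). The other 6 matched genes of the arm were too low to be tested. Chac1 (means 0.789 and 1.35 FPKM), Fgf21 (0.101 and 0.413), Nupr1 (0.0365 and 0.135) and Psat1 (0.0409 and 0.0860) were higher in every cadmium library. Asns and Atf3 overlapped. Over all tested genes 26.4% were apart in that direction, but that share is over genes above the filter and these lie below it. Chac1 was barely apart, at 0.9836 FPKM in its highest control and 0.9854 in its lowest cadmium library.

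The cytosolic and mitochondrial heat shock proteins, the counterparts of BiP and GRP94 outside the ER, had 6 of 20 tested members called lower and 0 higher, against 1.82% and 7.86% of all genes. With the replicate block 3 were lower and 0 higher, against 0.646% and 1.86%. All 20 had a negative log2 fold change, against 33.3% of all genes, with a median of -0.37. The Hsp70 Hspa8 was at log2 fold change -0.96 (adjusted p = 0.0339), its J-domain partners Dnaja1 and Dnajb1 at -0.94 and -0.53 (0.0177 and 0.0244), and the HSP90 co-chaperone Chordc1 at -0.63 (0.0133). Leaving out cadmium replicate 3 ended these 4 calls, leaving out control replicate 3 or cadmium replicate 1 ended those of Hspa8, Dnaja1 and Dnajb1, and leaving out control replicate 2 those of Hspa8 and Dnajb1. The difference between this list and the ER members was not tested, and the values stand side by side: -0.96 for Hspa8 and -0.35 for its ER counterpart Hspa5. Over the 7 lists beside the 10 members 3 genes were called higher and 8 lower of 119 tested. These are 2.52% and 6.72% of the genes tested, against 7.86% and 1.82% of all genes, and 6 of the 8 lower calls are heat shock genes. On the deposited log2 values 3 were higher and 17 lower, where 3.85% of all genes were called higher and 4.98% lower.

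**Figure D5:**
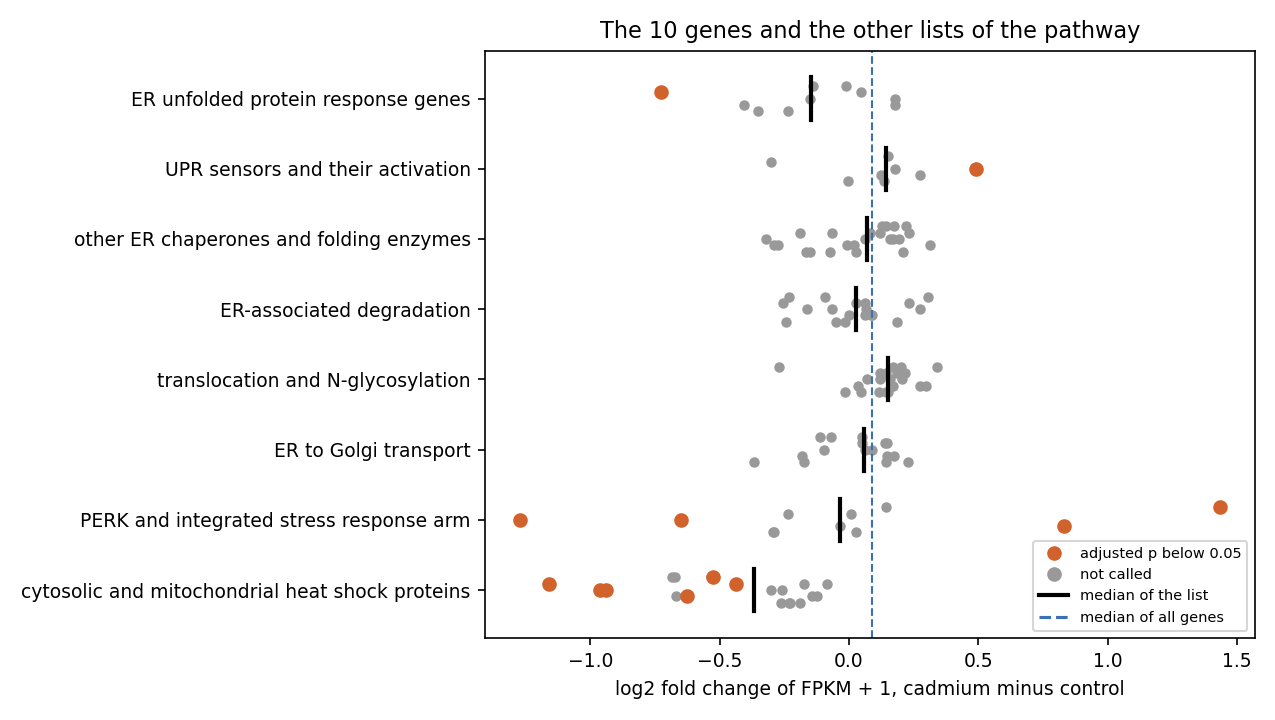
Log2 fold change of every tested gene of the 10 members and of the 7 other lists (x axis, cadmium minus control, log2 of FPKM + 1); coloured points passed an adjusted p of 0.05, black bars are list medians and the dashed line is the median of all genes. Calls sit in the PERK arm and the heat shock list, with 1 each among the 10 members and the sensors.

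The members' changes were last set beside the upstream letters, as a description with no test. The 5 genes with an ERSE had log2 fold changes of -0.35 (Hspa5), -0.01 (Hsp90b1), 0.18 (Pdia6), -0.15 (Dnajc3) and -0.23 (Creld2), and the ERSE-II gene Herpud1 had -0.73. The 4 genes with neither motif were at 0.18 (Pdia4), 0.05 (Sdf2l1), -0.41 (Dnajb9) and -0.14 (Xbp1). Outside the members 39 genes had an ERSE or ERSE-II in their window, and 13 of these were expressed enough to be tested. Of the 13, 0 were called in either direction, against 9.68% of all genes. In the 13, 2 had a negative log2 fold change, against 33.3% of all genes, and their median was 0.23 against 0.09. Those with ERSE-II, as at Herpud1, were Lgalsl, Nucb1, Rbm39 and Rcl1, at log2 fold changes of 0.54, 0.29, 0.325 and 0.29 (limma adjusted p = 0.101, 0.195, 0.150 and 0.159), named after their values were seen.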

How the data were processed

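Mouse liver RNA left unbound by an m6A antibody was sequenced in 6 libraries, 3 per group. The submitters' processing notes list STAR 2.7.1a, DESeq2, cutadapt 1.1.8, MACS2 2.1.1, SAMtools 1.3.1 and the build mm10, without their roles. How fragments were counted, and on which annotation, is not given in the sources used here. The authors deposited FPKM per gene, and a second table of log2 values with group means, log2 fold changes and p-values, whose test is not stated. Undoing log2 and subtracting 1 gave whole multiples of 1 step in each library for 100% of values under 1000 reads (within 0.05 of a read), the pattern of counts over a size factor.

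For the comparison, limma (version 3.58.1, R 4.3.3) was run two-sided on log2(FPKM + 1) with trended and robust variances. It took the 9908 genes that reached an FPKM of 1 in 3 or more libraries, with Benjamini-Hochberg adjustment and a threshold of 0.05. Fold changes on that scale understate the change of low genes. The fit was checked on simulated data with independent normal noise. It recovered 194 of 200 genes changed by 2 on the log2 scale, with 11 false calls. The members' changes were smaller, so that check does not show the power at their size. Neither table holds raw counts as deposited, so the main test was on FPKM, and voom on the recovered reads was an alternative. Each batch number of the labels joins 1 control and 1 cadmium library, so the pairing comes from the labels. Deviations from group means correlated at -0.21, -0.23 and -0.02 within these pairs. The members and lists were chosen with earlier results of these data known. The genes named are the 10 members, up to 4 genes of each other list with the smallest p, and the 5 genes most alike in profile to Hspa5 and to the members' mean. Apart from library checks and cell type markers, other genes are said to be named after their values were seen. Promoter sequences are RefSeq's (GRCm38.p6; 10 of 10 members matched). Srp54a matched several identifiers and Tf none, and both were left out. Strand of the counting is not stated; genes whose exons overlap those of a member had at most 0.787 FPKM.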

Additional observations from a re-analysis of the deposited data

How the results depend on the processing

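The count of members called, 1, was 0 without a filter on low FPKM and 0 with the replicate block, and 0 to 1 when 1 library was left out. It stayed 1 with a pseudocount of 0.1, quantile normalization, median-of-ratios scaling, the deposited log2 values (also with the block, an alternative added after seeing the data), unmoderated variance trend, voom on recovered reads, and without control replicate 1 and cadmium replicate 2. Without the filter, 34351 genes were tested and Herpud1 had an adjusted p of 0.0705.

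Genes of the other lists called lower, 8, were 0 without the filter, 17 in the deposited log2 values, 17 with voom, 4 with the replicate block, 10 without control replicate 1 and cadmium replicate 2, and 0 to 9 when 1 library was left out (0 without cadmium replicate 3, 2 without control replicate 3 or cadmium replicate 1, 4 without control replicate 2). Those called higher, 3, were 1 without the filter, 1 with the replicate block and 1 to 3 when 1 library was left out (1 without cadmium replicate 3). The block ended calls among the cell type markers, that of Lyve1 (limma adjusted p = 0.109) included. Among the members and the genes named from the pathway lists, it ended those of Herpud1, Creb3l2, Atf5, Ppp1r15b, Chordc1 and Dnajb1 and no other (adjusted p = 0.0672, 0.0516, 0.0584, 0.0705, 0.0503 and 0.0627). With the block on the deposited log2 values, 10 genes of the other lists were lower and 2 higher, and of those 6 genes Herpud1 (0.0234), Atf5 (0.0392), Ppp1r15b (0.0286), Chordc1 (0.0158) and Dnajb1 (0.0279) were called, while Creb3l2 was not (0.0680). Over all genes, the 779 called higher and 180 lower were 347 and 298 after quantile normalization, 386 and 292 after median-of-ratios scaling, 378 and 487 with voom, 184 and 64 with the block, 31 and 6 without the filter, and 78 and 23 without cadmium replicate 3. The cause was not tested, other than that fewer libraries or more genes entered some fits.

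Signs turned for genes that were never called. Sdf2l1 was at -0.035 after quantile normalization, -0.066 after median-of-ratios scaling, -0.13 in the deposited log2 values with or without the block and with voom, -0.055 without control replicate 1, -0.0055 without control replicate 2 and -0.10 without cadmium replicate 3. Hsp90b1 ranged from -0.092 to 0.062 when 1 library was left out, above 0 without control replicate 2 (0.0022), control replicate 3 (0.056) or cadmium replicate 2 (0.062). In the same fits Xbp1 ranged from -0.23 to 0.019, above 0 without control replicate 1, Creld2 from -0.53 to 0.22, above 0 without control replicate 2, and Sdf2l1 from -0.10 to 0.22. Pdia4 was at -0.0042 with voom, and Mbtps1 at -0.022 in the deposited log2 values, with or without the block, and -0.023 with voom. Hspa5, Dnajb9, Dnajc3 and Pdia6 kept their direction in all 16 alternatives and were called in none. With 3 libraries per group the 95% intervals ran from -0.40 to 0.10 for Dnajc3, the narrowest, and from -1.32 to 0.85 for Creld2, the widest, which limits what could be seen.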
